A study of Rattus norvegicus with 6 samples.

Results

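Transcripts of 9 genes of the interleukin-6 (IL-6) family, 5 secreted ligands and 4 receptor subunits, were examined in donor hearts of young and aged rats on day 1 after heart transplantation. The genes were taken by symbol from a deposited table of 22250 rat genes, and all 9 were found once each. The ligands were Il6, Il11, Lif, Osm and Clcf1, and the receptor subunits were Il6r, Il6st, Osmr and Lifr. The 3 young donor hearts (labelled WT, donors of 10 weeks) and the 3 aged donor hearts (labelled OT, donors of 1 year) came from Sprague-Dawley rats of wild-type genotype, and the study examined male rats. Every heart had been arrested with cardioplegic solution, stored cold and grafted heterotopically into a young recipient, and RNA was taken from the left ventricular myocardium. No ungrafted heart was analysed here, so both groups carry the effects of cold storage and transplantation, and blood cells of the recipient can be part of each sample. The comparison of aged with young donor hearts addresses which transcripts differ with donor age after the same procedure.

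Cytokines of the IL-6 family signal through receptor complexes that share the subunit encoded by Il6st. IL-6 first binds the receptor encoded by Il6r, which lacks signalling activity of its own. Oncostatin M (Osm) can signal through a pair of the Osmr and Il6st products, which need not be its only receptor. Leukaemia inhibitory factor (Lif) signals through a pair of the Lifr and Il6st products, and interleukin-11 (Il11) through its own binding receptor with the Il6st product. Cardiotrophin-like cytokine factor 1 (Clcf1) binds the ciliary neurotrophic factor receptor and uses the Lifr and Il6st products. The complexes activate JAK kinases and STAT transcription factors, mainly STAT3, and in the heart they are known for roles in the acute response to injury, in survival and growth of cardiomyocytes and in the remodelling of muscle and matrix.

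Coordinates of the table are given on Rnor_6.0, the rat genome build in the submitters' processing notes. Osm (ENSRNOG00000024390, chromosome 14, 84465515 to 84470409) and Lif (ENSRNOG00000007002, chromosome 14, 84482674 to 84500642) lie next to each other on the plus strand, 12264 bases apart with no listed gene between them. Osmr (ENSRNOG00000033192, chromosome 2, 56110777 to 56151531, minus strand) and Lifr (ENSRNOG00000011696, chromosome 2, 56426367 to 56489415, plus strand) are likewise neighbours, 274835 bases apart with no listed gene between. Il6st (ENSRNOG00000013963, 44289393 to 44314944) and Il6r (ENSRNOG00000020811, 189205701 to 189254628) are also on chromosome 2. Il6 (ENSRNOG00000010278) is on chromosome 4 from 3043231 to 3047807, whereas Il11 (ENSRNOG00000017386, 72635267 to 72643255) and Clcf1 (ENSRNOG00000018752, 219468675 to 219472654) are on chromosome 1. No other listed gene overlapped any of the 9 on either strand.

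Promoter sequences, 250 bases before and 50 bases from the annotated start on, were matched by symbol for 6 of the 9 genes (Il6, Il11, Il6r, Il6st, Osmr and Lifr) in RefSeq on build GRCr8, which is not the build of the table. They were searched on both strands for the STAT motif TTCNNNGAA, the AP-1 motif TGANTCA, the C/EBP motif TTGCNNAA and the NF-kB site. Of 33469 rat promoters of this length, 8.87% held the STAT motif, 7.33% the AP-1 motif, 10.6% the C/EBP motif and 4.18% the NF-kB site. The promoters of Il6, Il11 and Osmr, which held a match and belong to transcripts more abundant in aged donor hearts, and that of Lifr, the transcript less abundant in aged donor hearts, are shown 5′ to 3′ on the strand of the gene, with motif matches in capitals.
Il6, chr4:5894526-5894825, minus strand: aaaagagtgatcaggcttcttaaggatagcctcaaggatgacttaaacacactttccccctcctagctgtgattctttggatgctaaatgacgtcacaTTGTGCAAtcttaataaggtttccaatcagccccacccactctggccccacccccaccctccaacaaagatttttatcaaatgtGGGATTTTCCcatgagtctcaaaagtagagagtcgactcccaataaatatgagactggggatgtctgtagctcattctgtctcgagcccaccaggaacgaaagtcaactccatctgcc
Il11, chr1:78098372-78098671, plus strand: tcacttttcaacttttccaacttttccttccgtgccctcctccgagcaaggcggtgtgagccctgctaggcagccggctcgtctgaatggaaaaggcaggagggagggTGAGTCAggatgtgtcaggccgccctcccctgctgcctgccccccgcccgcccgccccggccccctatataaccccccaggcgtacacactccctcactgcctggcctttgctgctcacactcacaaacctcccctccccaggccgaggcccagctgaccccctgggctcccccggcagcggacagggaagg
Osmr, chr2:57688512-57688811, minus strand: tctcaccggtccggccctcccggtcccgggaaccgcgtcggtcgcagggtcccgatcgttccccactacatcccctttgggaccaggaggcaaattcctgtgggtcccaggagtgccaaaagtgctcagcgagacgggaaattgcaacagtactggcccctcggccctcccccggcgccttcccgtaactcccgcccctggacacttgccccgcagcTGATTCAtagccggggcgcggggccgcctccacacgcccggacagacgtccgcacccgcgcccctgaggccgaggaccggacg
Lifr, chr2:57963139-57963438, plus strand: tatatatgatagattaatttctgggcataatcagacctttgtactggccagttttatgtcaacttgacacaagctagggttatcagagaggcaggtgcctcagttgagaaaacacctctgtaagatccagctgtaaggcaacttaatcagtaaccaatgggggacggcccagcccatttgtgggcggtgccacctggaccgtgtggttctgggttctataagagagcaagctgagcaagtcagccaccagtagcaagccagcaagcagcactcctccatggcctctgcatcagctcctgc
The Il6 promoter held a C/EBP match, read as TTGTGCAA on the strand shown, that begins 152 bases before the start, and an NF-kB match, GGGATTTTCC, that begins 68 bases before it. Il11 and Osmr each held an AP-1 match, TGAGTCA beginning 142 bases and TGATTCA beginning 33 bases before the start, and this motif reads alike on both strands. The windows of Lifr, Il6st and Il6r held none of the 4 motifs. The annotated start of Il6st lies directly after the letters CAG, as the start of an inner exon can, so that window need not be a promoter. Whether the annotated starts are those of transcription was not checked, so a window without a match does not show a promoter without one. A match of letters is a description of the sequence and was not tested for binding.

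The libraries held 21457509 to 22277905 gene-assigned reads in young and 22508040 to 24560869 in aged donor hearts. Levels are given as reads, as CPM (counts scaled to a common library size with edgeR's TMM factors) and, between genes, as FPKM, the deposited value per length. A count of 3 reads corresponds to 0.0985 to 0.191 CPM across the hearts. Young hearts 3 and 13 were alike, with a median absolute difference of 0.16 in log2 CPM over the genes tested, whereas young heart 15 differed from them by 0.60 and 0.64 and from the 3 aged donor hearts by 0.30 to 0.44. The summed CPM of 8 cardiomyocyte markers was 79355 and 88273 in young hearts 3 and 13, 10942 in young heart 15, 6669 and 5493 in aged hearts 4 and 7, and 155.1 in aged heart 3, so that the defining genes of the labelled tissue were nearly absent from that sample. Summed over 3 atrial markers, aged heart 4 was at 149.97 CPM and young heart 3 at 62.4, against 1.08 to 7.44 CPM in the other 4 hearts. The share of reads on genes of the mitochondrial genome was 11.9% to 21.7% in young and 6.56% to 10.3% in aged donor hearts, without overlap, and its part in the differences below was not tested. Because young heart 15 and aged heart 3 stand apart, counts of the 9 transcripts past the limits are also given without each of them and without both. Fold changes without young heart 15 are given for most of the 9, and for the gene lists some of the calls that changed are given.

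Aged donor hearts contained more transcript of all 5 ligands and of the receptors Il6r and Osmr and less Lifr, while Il6st was not past the limits used. These were the limits of the study, more than 1.5-fold or less than 0.67-fold at an unadjusted p under 0.05, here set on edgeR's quasi-likelihood test over 13784 genes. Of the 9 transcripts, 7 were past these limits and higher in aged donor hearts, where 13.2% of all genes tested were, and 1 was past them and lower, where 19.0% of all genes were. Together 8 of 9 were past the limits, against 32.2% of all genes, and the same 8 had an unadjusted p under 0.05, against 34.3%. The groups did not overlap in the 7 higher transcripts, against 41.6% of all genes. In these 7 all aged donor hearts lay above the young ones (21.0% of all genes), and in 0 of the 9 did all lie below them (20.6% of all genes). The median log2 fold change was 2.05 over the 9 transcripts and 0.016 over all genes tested. After Benjamini-Hochberg adjustment over all genes, none of the 9 had an adjusted p under 0.05 in edgeR, where the adjusted p ran from 0.0916 to 0.189, and none of the 13784 genes did. This count rests on young heart 15: without it, all 9 had an adjusted p under 0.05 in edgeR, from 0.00146 to 0.0209, as did 6815 of 14109 genes (48.3%). Without young heart 15 and aged heart 3 together, all 9 did, as did 7642 of 13863 genes (55.1%). Young heart 15 lay nearest to the aged donor hearts in all 9 transcripts, and young hearts 3 and 13 were alike. Leaving out young heart 15 therefore widens the gap between the groups and narrows the young group, so these fits are no independent support. They also leave Il6 without a read in the young group. With all 6 hearts, at an unadjusted p under 0.05 edgeR called 4731 genes, and at an adjusted p under 0.05 DESeq2 called 3592 genes, 8 of the 9 transcripts among them, and limma-voom 8416 genes, all 9 among them. A two-sided exact permutation test of 3 hearts against 3 cannot give a p below 0.1, which was the value for each of the 7 transcripts.

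**Figure D1:**
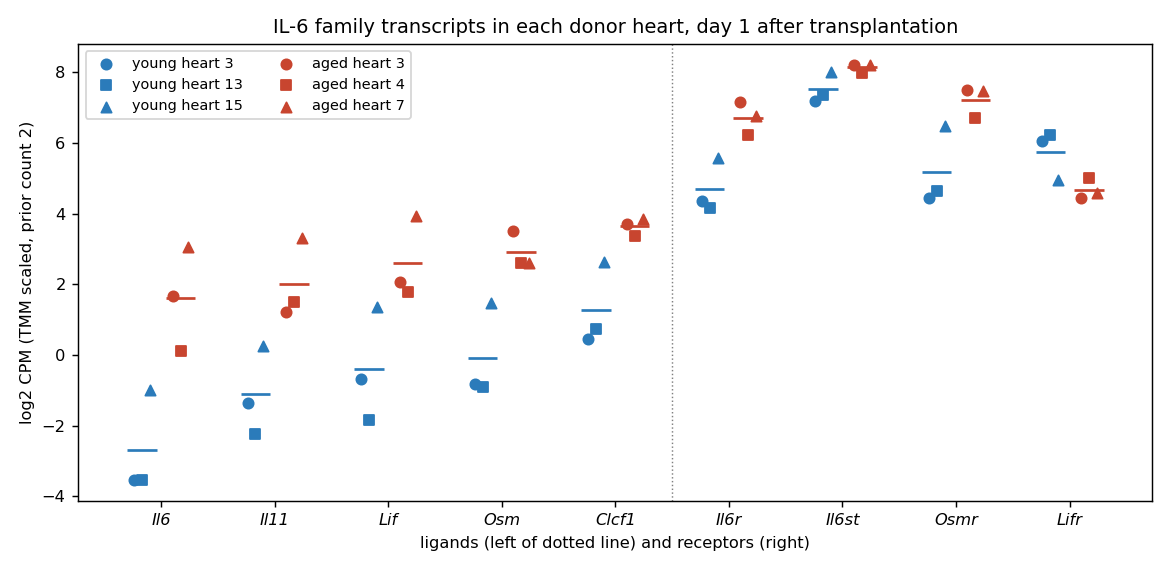
Each point is the log2 CPM (TMM scaled, prior count 2) of 1 transcript in 1 heart, with young donor hearts in blue, aged donor hearts in red and a horizontal line at the mean of 3 hearts. The aged donor hearts lie above all young donor hearts for the 5 ligands, Il6r and Osmr, the groups overlap for Il6st and Lifr, and young heart 15 lies nearest to the aged donor hearts in every column.

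Il6, the inflammatory cytokine that names the family, was close to absent from young donor hearts. It was read 0, 0 and 10 times in young hearts 3, 13 and 15, and 94, 26 and 213 times in aged hearts 3, 4 and 7. In CPM it was at 0.413 in young heart 15 and at 3.09, 0.986 and 8.16 in the aged donor hearts. Every aged donor heart was above the young ones, and aged heart 7 was highest. The mean was 0.138 ± 0.238 CPM in young and 4.08 ± 3.69 CPM in aged donor hearts (SD, n = 3 each). The fitted log2 fold change was 4.63 (standard error 1.33, unadjusted p = 0.0120 and Benjamini-Hochberg adjusted p = 0.0927 from edgeR). It rests on few reads in the young group. Against the level of 3 reads in a young heart with none, 0.191 CPM, the mean of the aged donor hearts was at least 21.4-fold higher. That bound holds for young hearts 3 and 13 only. The lowest aged donor heart, at 0.986 CPM, was 2.39-fold above young heart 15. Aged heart 7 held most of the Il6 reads, and without it the log2 fold change was 3.67 (unadjusted p = 0.0440 from edgeR). Without young heart 15 the young group had no read, and no fold change is given.

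Il11, a cytokine known for its part in fibrosis, and Lif, a growth and survival factor for cardiomyocytes, were both highest in aged heart 7. Il11 was read 5, 2 and 27 times in young hearts 3, 13 and 15 and 68, 72 and 255 times in aged hearts 3, 4 and 7, which was 0.302, 0.127 and 1.12 CPM against 2.23, 2.73 and 9.77 CPM. For Il11 the fitted log2 fold change was 3.18 (standard error 0.94, unadjusted p = 0.0134 from edgeR). Lif was read 9, 3 and 60 times in the young and 126, 89 and 400 times in the aged donor hearts, or 0.544, 0.191 and 2.48 CPM against 4.14, 3.37 and 15.3 CPM. For Lif the fitted log2 fold change was 2.78 (standard error 1.02, unadjusted p = 0.0326 from edgeR). In both genes the groups did not overlap, and young heart 15 was the highest of the young hearts. Without aged heart 7 the log2 fold change fell to 2.21 for Il11 (unadjusted p = 0.0495 from edgeR) and to 1.78 for Lif (unadjusted p = 0.130), so that Lif was no longer past the limits. The Lif call was also lost without young heart 3 (unadjusted p = 0.0892 from edgeR) or young heart 13 (unadjusted p = 0.0626). Without young heart 15 the log2 fold changes were 4.51 for Il11 and 4.39 for Lif.

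Osm, a cytokine made mainly by activated neutrophils, macrophages and T cells, was read 8, 7 and 65 times in young hearts 3, 13 and 15 and 345, 159 and 155 times in aged hearts 3, 4 and 7. This was 0.484, 0.445 and 2.68 CPM in the young and 11.3, 6.03 and 5.94 CPM in the aged donor hearts. In contrast to its genomic neighbour Lif, which was highest in aged heart 7, Osm was highest in aged heart 3. The ratio of Osm to Lif FPKM within a heart ran from 0.716 to 1.88 in young and from 0.312 to 2.21 in aged donor hearts, so the groups overlapped. The log2 fold change of Osm was 2.65 (standard error 0.77, unadjusted p = 0.0127 and Benjamini-Hochberg adjusted p = 0.0931 from edgeR), and it was 4.09 without young heart 15. Clcf1 had the highest mean FPKM of the ligands in both groups, with 1.298 ± 1.43 FPKM in young and 6.56 ± 1.25 FPKM in aged donor hearts (SD, n = 3 each), although Il6 and Lif were above it in aged heart 7. It was at 1.27, 1.59 and 6.11 CPM in young hearts 3, 13 and 15 and at 13.1, 10.2 and 14.3 CPM in aged hearts 3, 4 and 7, so the aged donor hearts were more even for it than for Il6, Il11 or Lif. Its log2 fold change was 2.05 (standard error 0.63, unadjusted p = 0.0158 from edgeR), and 3.17 without young heart 15.

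Among receptors, Il6r, the binding receptor for IL-6, was read 335, 281 and 1156 times in young hearts 3, 13 and 15 and 4378, 1957 and 2829 times in aged hearts 3, 4 and 7. In CPM these were 20.3, 17.9 and 47.7 against 143.8, 74.2 and 108.4, without overlap. Its log2 fold change of 1.92 had the smallest p of the 9 transcripts (standard error 0.46, unadjusted p = 0.00508 and Benjamini-Hochberg adjusted p = 0.0916 from edgeR). It was past the limits in each of the 6 fits that left out 1 heart, as were Il6, Il11, Osm and Clcf1, and it was 2.55 without young heart 15. Osmr, the receptor subunit for oncostatin M, which also takes part in the interleukin-31 receptor, was at 21.7, 24.7 and 89.4 CPM in the young and at 181.9, 104.1 and 177.03 CPM in the aged donor hearts, again without overlap. The log2 fold change of Osmr was 1.77 (standard error 0.61, unadjusted p = 0.0250 from edgeR) and 2.77 without young heart 15. Its call was lost without young heart 3 (unadjusted p = 0.0614 from edgeR), young heart 13 (unadjusted p = 0.0677), aged heart 3 (unadjusted p = 0.0621) or aged heart 7 (unadjusted p = 0.0645).

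Il6st, the subunit that all these complexes share, was by far the most abundant of the 9 transcripts. It was at 144.9, 164.3 and 260.04 CPM in young hearts 3, 13 and 15 and at 297.4, 254.6 and 295.8 CPM in aged hearts 3, 4 and 7, so that young heart 15 lay within the range of the aged donor hearts. The log2 fold change was 0.57 (standard error 0.28, unadjusted p = 0.0833 and Benjamini-Hochberg adjusted p = 0.189 from edgeR, exact permutation test p = 0.2), which is not past the limits. Without young heart 15 it was 0.91 and past them (unadjusted p = 0.00291 from edgeR). Lifr, the receptor subunit for leukaemia inhibitory factor, was the only one of the 9 that was lower in aged donor hearts. It was read 1091, 1174 and 748 times in the young and 657, 846 and 619 times in the aged donor hearts, or 66.0, 74.6 and 30.9 CPM against 21.6, 32.1 and 23.7 CPM. Aged heart 4 lay just above young heart 15, and the groups therefore overlapped. The log2 fold change was -1.15 (standard error 0.36, unadjusted p = 0.0175 and Benjamini-Hochberg adjusted p = 0.0985 from edgeR, exact permutation test p = 0.2). The call was lost without young heart 3 (unadjusted p = 0.0520 from edgeR), young heart 13 (unadjusted p = 0.0572), aged heart 3 (unadjusted p = 0.0584) or aged heart 7 (unadjusted p = 0.0593), and with scaling by library totals alone, where the log2 fold change was -0.62 and the median of all genes 0.46.

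**Figure D2:**
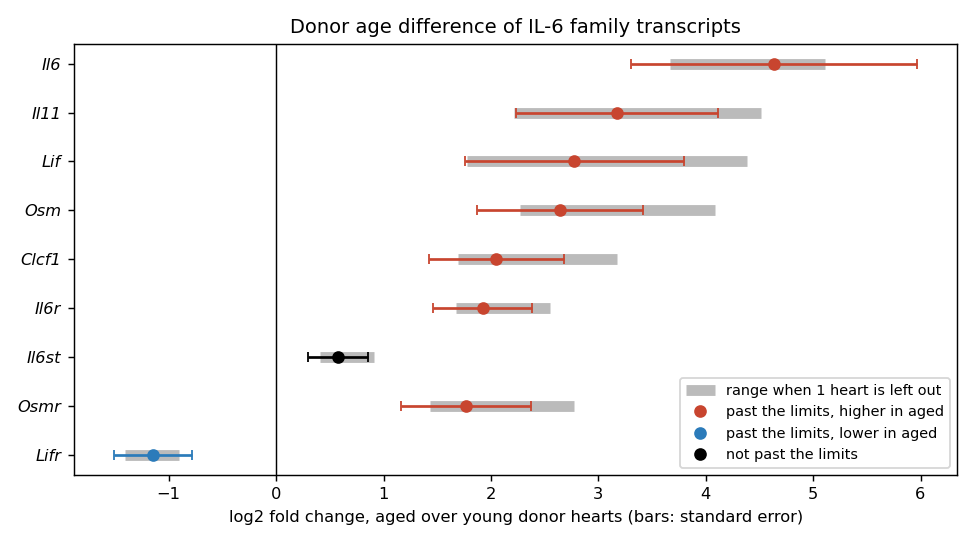
Points give the log2 fold change of aged over young donor hearts from edgeR with its standard error as a bar, and grey bands give the range when 1 heart at a time was left out (for Il6, 5 of the 6 fits). The 5 ligands, Il6r and Osmr lie to the right of 0 with bands that do not reach 0, Lifr lies to the left at -1.15, and the band of Il6, from 3.67 to 5.11, leaves out the fit without young heart 15, in which the young group has no Il6 read.

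Levels per length give the order of the receptors, which within a heart does not depend on library scaling. In young donor hearts the order by mean FPKM was Il6st (55.1 ± 30.9), Osmr (15.2 ± 15.9), Lifr (8.61 ± 2.09) and Il6r (5.84 ± 4.72) (SD, n = 3 each), and only Il6st was set apart from its neighbour by more than the range over hearts. No young heart had this order: Lifr was above Osmr and Osmr above Il6r in hearts 3 and 13, and in heart 15 Osmr was above Il6r and Il6r above Lifr. In aged donor hearts the order was Il6st (107.1 ± 13.3), Osmr (63.2 ± 19.8), Il6r (28.1 ± 10.3) and Lifr (5.60 ± 0.98) (SD, n = 3 each), with no overlap between neighbours. The ligand means were below those of the receptors in young donor hearts, from 0.143 FPKM for Il6 to 1.298 FPKM for Clcf1, and the ranges of neighbours in this order overlapped, as did those of Clcf1 and Il6r. In aged donor hearts the ligand means ran from 3.35 FPKM for Osm to 6.56 FPKM for Clcf1, the ranges again overlapped between neighbours, and Clcf1 overlapped with Lifr.

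The make-up of the receptor transcripts differed between the groups, with larger shares of Osmr and Il6r and smaller shares of Lifr and Il6st in aged donor hearts. Lifr made up 17.3% and 17.5% of the summed FPKM of the 4 receptors in young hearts 3 and 13, 4.39% in young heart 15 and 2.07%, 4.26% and 2.39% in aged hearts 3, 4 and 7. Osmr made up 10.6%, 10.8% and 23.7% in the young and 32.4%, 25.7% and 33.2% in the aged donor hearts. Il6st made up 65.8%, 66.8% and 64.0% in the young and 49.3%, 58.5% and 51.6% in the aged donor hearts. The FPKM ratio of Osmr to Lifr was 0.613 and 0.615 in young hearts 3 and 13, so that Lifr was the more abundant there, but 5.39 in young heart 15 and 15.7, 6.04 and 13.9 in aged hearts 3, 4 and 7. The groups did not overlap in this ratio, and young heart 15 lay close below aged heart 4. The ratio of Il6r to Il6st was 0.0947, 0.0736 and 0.124 in the young and 0.327, 0.197 and 0.248 in the aged donor hearts, also without overlap. That of Osmr to Il6st did not overlap either (0.161 to 0.370 and 0.440 to 0.658). In the ratio of Lifr to Il6st the groups overlapped, with 0.263, 0.262 and 0.0686 in the young and 0.0419, 0.0728 and 0.0463 in the aged donor hearts. These ratios are built from transcripts described above and carry no separate test.

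**Figure D3:**
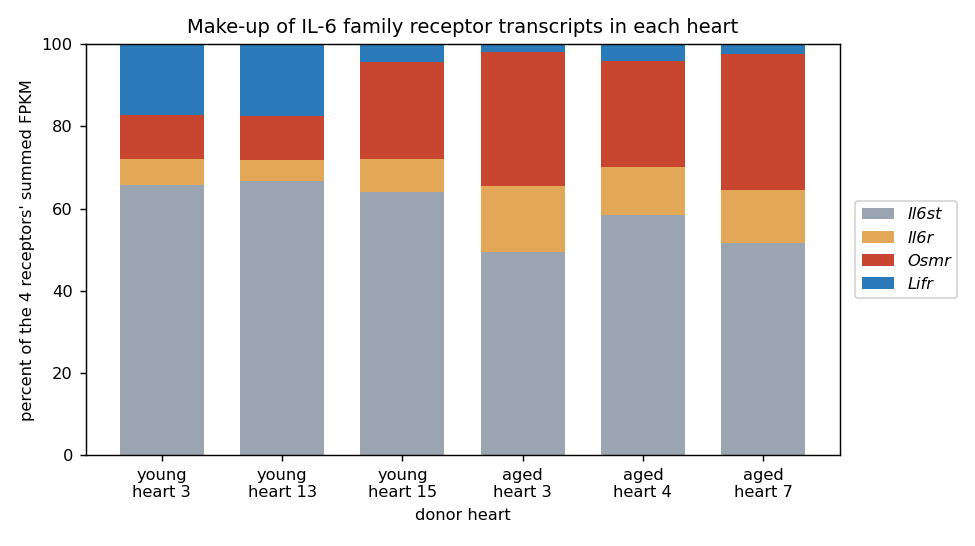
Stacked bars give the percentage of the summed FPKM of Il6st, Il6r, Osmr and Lifr in each of the 6 donor hearts. Lifr (blue) takes 17.3% and 17.5% in young hearts 3 and 13 and at most 4.39% in the other 4 hearts, while Osmr (red) takes 10.6% and 10.8% in the former and 23.7% or more in the latter.

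**Figure D4:**
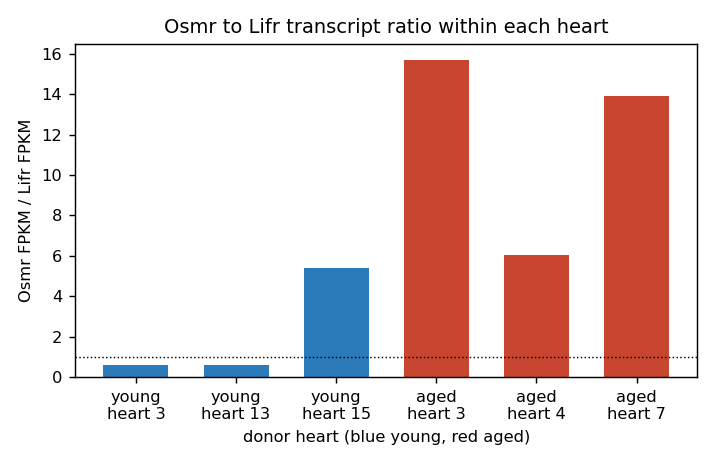
Bars give the ratio of Osmr FPKM to Lifr FPKM in each heart, with young donor hearts in blue, aged donor hearts in red and a dotted line at a ratio of 1. The ratio is below 1 only in young hearts 3 and 13, is 5.39 in young heart 15 and runs from 6.04 to 15.7 in the aged donor hearts.

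Summed markers of neutrophils and macrophages were, like most of the 9 transcripts, higher in aged donor hearts. The summed CPM of 8 neutrophil markers ran from 123.9 to 181.8 in young and from 403.3 to 1447 in aged donor hearts, with Cd177 at 0 reads in 5 of the 6 hearts. Of the 7 tested, 5 were past the limits and higher (13.2% of all genes). Ncf1 made up most of the sum in young hearts 3 and 13, and without it the other 7 summed to 5.32, 6.93 and 134.1 CPM in young hearts 3, 13 and 15 and to 313.1 to 1322 CPM in the aged donor hearts. Young heart 15 thus stood above the other young hearts in neutrophil markers, as it did for the ligands, Il6r and Osmr. Aged heart 3, which had the most Osm, Il6r, Osmr and Il6st, also had the highest neutrophil and macrophage sums, at 1447 and 2177 CPM. Aged heart 7, which had the most Il6, Il11, Lif and Clcf1, had a neutrophil sum of 769.4 CPM. Its macrophage sum, 890.7 CPM, was the lowest of the aged donor hearts. Aged heart 4 had the lowest neutrophil sum of the aged donor hearts, 403.3 CPM, and the least Il6, Lif, Clcf1, Il6r, Osmr and Il6st of them. Among these hearts Il11 was lowest in aged heart 3 and Osm in aged heart 7. The summed CPM of 8 macrophage markers ran from 281.6 to 868.7 in young and from 890.7 to 2177 in aged donor hearts, with 5 of 8 past the limits and higher (13.2% of all genes). Of 6 T cell markers 4 were tested and only Cd2 was past the limits and higher (13.2% of all genes). Their sums, 3.43 to 58.2 CPM in young and 70.5 to 108.5 CPM in aged donor hearts, were mostly Cd8a, and the groups overlapped in Cd3d, Cd3e and Cd3g, which were each at 1.71 CPM or less. Cardiomyocyte marker sums ran the other way, as Lifr did, from 10942 to 88273 CPM in young and from 155.1 to 6669 CPM in aged donor hearts. Of these markers, 3 of 8 were past the limits and lower (19.0% of all genes). Endothelial, smooth muscle and red blood cell sums overlapped between the groups. Fibroblast sums were 2519 to 3819 CPM in young and 937.7 to 2140 CPM in aged donor hearts. Only 1 of 5 markers, Col1a1, was past the limits and lower (19.0% of all genes). The sums of the other 4 overlapped (943.1 to 1158 and 628.6 to 1377 CPM). In these bulk samples, more or fewer cells of a type cannot be told apart from more or less RNA per cell, and the part of cell content in the differences of the 9 transcripts was not tested.

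Of 9 other ligands and receptors of the family 8 were matched and 6 tested, 0 were past the limits and higher (13.2% of all genes) and 2, Il11ra1 and Ctf1, were past them and lower (19.0% of all genes). Il11ra1, the binding receptor for interleukin-11, was at 79.3, 72.04 and 61.6 CPM in young hearts 3, 13 and 15 and at 20.2, 38.7 and 35.9 CPM in aged hearts 3, 4 and 7, so that it was lower in every aged donor heart although its ligand was higher. Its log2 fold change was -1.17 (standard error 0.28, unadjusted p = 0.00514 from edgeR). Ctf1, which encodes cardiotrophin 1, another ligand of the pair of the Lifr and Il6st products, was at 6.41 ± 2.62 CPM in young and 2.53 ± 1.08 CPM in aged donor hearts (SD, n = 3 each), also without overlap. Ebi3, a subunit of interleukin-27, had a log2 fold change of 2.21 with a standard error of 0.95 and was not past the limits (unadjusted p = 0.0561 from edgeR), although the groups did not overlap. It was past them and higher with no filter on low counts, with DESeq2, with limma-voom and without young heart 15. Ctf1 was not past them without young heart 3, young heart 13, aged heart 3 or aged heart 4. With library totals alone, 1 of the 6 genes was lower and past the limits and their median log2 fold change turned from -0.45 to 0.029.

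Among 10 genes of JAK kinases, STAT factors and adaptors, 3 were past the limits and higher (Jak2, Shc1 and Tyk2) and 1 was past them and lower (Gab1), which at 4 of 10 is near the 32.2% of all genes past the limits. Jak2, a kinase bound to the shared subunit, was at 36.9, 30.5 and 126.8 CPM in young hearts 3, 13 and 15 and at 177.02, 130.6 and 212.3 CPM in aged hearts 3, 4 and 7. For Jak2 the fitted log2 fold change was 1.42 (standard error 0.58, unadjusted p = 0.0485 from edgeR). Stat3, the main factor downstream, had a log2 fold change of 0.33 with a standard error of 0.27 and was not past the limits, nor were Stat5a and Stat5b. Stat3 was past them and higher without young heart 15 and aged heart 3 together. Stat5a was past them and higher without aged heart 7 and with both scalings by library totals. The calls of this list depended on single hearts, as 0 of the 10 genes were past the limits without young heart 3, without young heart 13 or without aged heart 4. The sheddases Adam10 and Adam17, proteases that release Il6r from the cell surface, had log2 fold changes of -0.13 and 0.58, and neither was past the limits. For Adam17 the groups did not overlap (unadjusted p = 0.0214 from edgeR), its fold lay just under the limit, and it was past the limits and higher without young heart 15, without aged heart 4, with no filter on low counts, with limma-voom and with both scalings by library totals.

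The inhibitors of the pathway split by gene. Of 8 tested, 3 were past the limits and higher (Socs3, Socs1 and Ptpn2), where 13.2% of all genes were. Another 2 were past them and lower (Socs2 and Cish), which is near the 19.0% of all genes. These counts held in each of the 6 fits that left out 1 heart, except that 4 were higher without young heart 15. Socs3, the feedback inhibitor that binds the Il6st product and is itself a STAT3 target, was at 8.11, 8.58 and 27.7 CPM in young hearts 3, 13 and 15 and at 91.6, 61.9 and 109.4 CPM in aged hearts 3, 4 and 7. For Socs3 the log2 fold change was 2.56 (standard error 0.56, unadjusted p = 0.00311 from edgeR). Cish, a feedback inhibitor induced mainly through STAT5, was at 42.1, 53.9 and 21.8 CPM in the young and at 7.03, 9.29 and 11.6 CPM in the aged donor hearts. The log2 fold change of Cish was -2.07 (standard error 0.39, unadjusted p = 0.00140 from edgeR) and that of Socs2, likewise mainly a STAT5 target, was -2.21.

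Of 24 listed genes known as targets of STAT3 or of the acute phase, 22 were matched and 18 tested. In all, 10 were past the limits and higher (13.2% of all genes) and 1 was past them and lower (19.0% of all genes). The median log2 fold change was 1.80, against 0.016 over all genes tested. The higher genes were Lcn2, Fos, Junb, Il4r, Icam1, Hp, Bcl3, Cebpd, Hif1a and Cebpb, with log2 fold changes from 1.26 for Cebpb to 2.39 for Lcn2. The groups did not overlap in any of these except Cebpb. Over the 18 tested genes, all aged donor hearts lay above the young ones in 12 (21.0% of all genes). Lcn2, an iron-carrier-binding protein of neutrophils and injured tissue, was at 11.4, 9.73 and 9.38 CPM in young hearts 3, 13 and 15 and at 30.1, 41.4 and 88.7 CPM in aged hearts 3, 4 and 7, so young heart 15 did not stand above the other young hearts for it. Cebpd, an acute phase transcription factor, was at 28.1 ± 11.03 CPM in young and 86.4 ± 24.2 CPM in aged donor hearts (SD, n = 3 each). The lower gene was Vegfa, which encodes a vascular growth factor, and its groups overlapped (log2 fold change -2.61, standard error 0.86, unadjusted p = 0.0212 from edgeR). It was not past the limits without young heart 13, without aged heart 3 or without aged heart 4. Several of these genes are also targets of other pathways or products of immune cells, and counts over the 6 fits that left out 1 heart ran from 7 higher without young heart 3 to 14 higher without young heart 15.

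**Figure D5:**
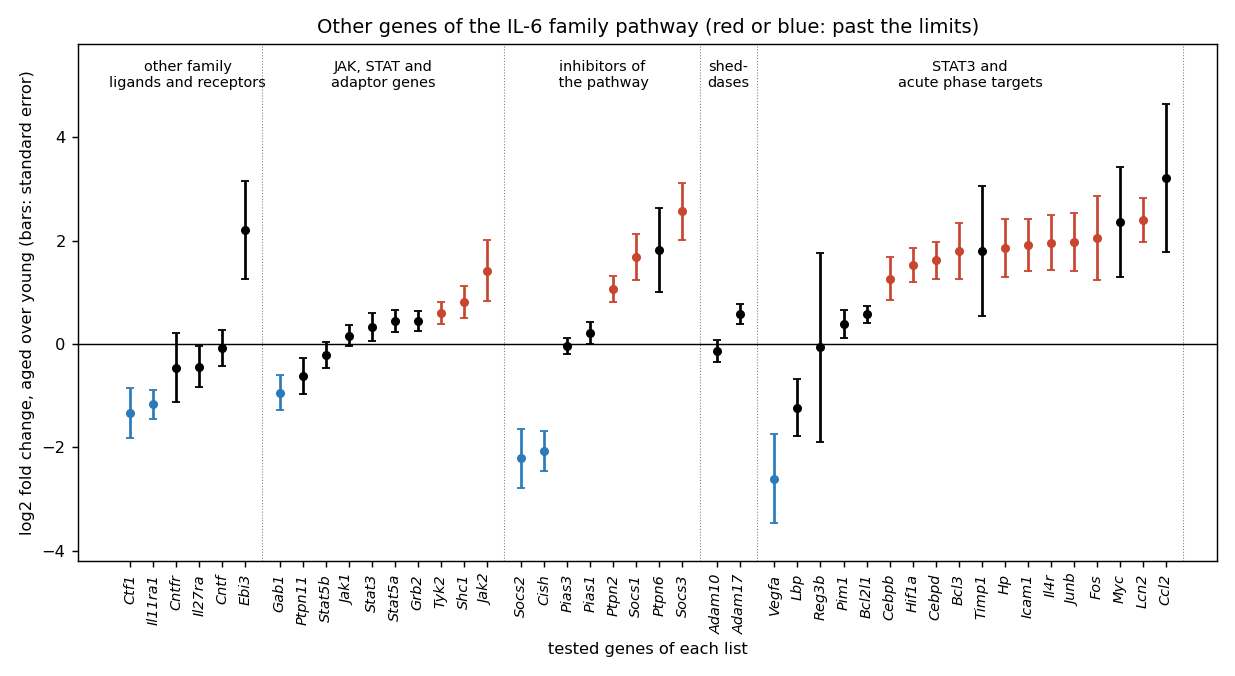
Points give the log2 fold change of aged over young donor hearts from edgeR, with standard errors as bars, for the 44 tested genes of 5 lists, in red or blue where past the limits. Of these genes 16 are past the limits and higher (13.2% of all genes) and 6 past them and lower (19.0% of all genes). Ctf1 and Il11ra1 are lower among the other family genes, and Socs3 and Socs2 lie at opposite ends of the inhibitors.

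Many genes shared the pattern of the most abundant ligand and receptor. For Clcf1, the transcripts with the highest Pearson r of log2 CPM over the 6 hearts, among 12958 with a mean of at least 1 CPM, were P2ry2, Ftsj1 and Pcnx3, each with r of 0.998 or more (0.9986, 0.9982 and 0.9981). For Il6st they were Fpgt, Slc10a3 and Trib1 (0.9973, 0.9969 and 0.9965). Over the same hearts 2559 transcripts had r above 0.9 with Clcf1 and 2326 with Il6st, so that such likeness is common in these libraries, which share the gap between young hearts 3 and 13 and the other 4 hearts.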

How the data were processed

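RNA-Seq was performed on polyadenylated RNA of 3 young and 3 aged donor hearts. The authors deposited raw read counts per gene, without normalization, and FPKM values, which equalled the count divided by the listed gene length and by the library's counted reads within 0.1% in 133499 of 133500 values. Per the labels, the processing notes name HISAT2 2.0.5, StringTie 1.3.3b, featureCounts 1.5.0-p3, DESeq2 1.16.1 and GATK 3.7, without roles, and the build Rnor_6.0. Use of strand is not given in the sources used here.

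The main test on the counts was that of edgeR 4.0.16 under R 4.3.3 (filterByExpr, TMM, glmQLFit and glmQLFTest, no covariates, two-sided, Benjamini-Hochberg adjustment over all 13784 genes tested). Standard errors were derived from F, as the size of the log2 fold change over its square root. How the authors tested these counts is not given in the sources used here, so a count model was used with the study's limits on fold change and p. Log2 CPM used a prior count of 2. The smallest difference between replicates, young hearts 3 and 13, exceeded sampling noise (chi-square 10.2 per degree of freedom), and all 6 libraries were kept. The edgeR p-values weigh the difference between the groups against the spread between these hearts, which is estimated with information shared over genes. That spread includes differences in tissue content between the hearts. Alternatives used DESeq2 1.42.0, limma 3.58.1 (voom with quality weights), other scalings and filters, and leaving out hearts. The script was tested on simulated data.

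The 9 genes and all gene lists were chosen with earlier results of these data known. All 9 are named, and from the lists the genes past the limits, or those whose role calls for a value. For the ligand and the receptor with the highest mean CPM, the 3 genes with the highest correlation are named. Ebi3, Stat3, Stat5a, Stat5b, Adam10 and Adam17 were not past the limits and were named after their values were seen. The lists of other family genes and of JAK, STAT and adaptor genes each first held 1 more gene than is counted, which is not reported here. Marker sums without Ncf1 or Col1a1 were added after seeing the data. The level of 3 reads used as a bound for Il6 covers counting error only, while standard errors and SDs include the spread between hearts.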

Additional observations from a re-analysis of the deposited data

How the results depend on the processing

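Under the alternatives in scaling, filter and test with all 6 hearts and an unadjusted p, the 5 ligands, Il6r and Osmr stayed past the limits and higher, and none of the 9 log2 fold changes turned its sign. With an adjusted p under 0.05 in edgeR in place of the unadjusted one, 0 of the 9 were past the limits and higher and 0 past them and lower. Without young heart 15 all 9 had an adjusted p under 0.05, but that fit leaves out the young heart nearest to the aged ones and is no independent support. Scaling by library totals alone left 0 lower, with Lifr at -0.62, and it moved the median log2 fold change of all genes to 0.46, while totals without the 13 genes of the mitochondrial genome moved it to 0.30. Limma-voom with quality weights raised Il6st to 0.88 and past the limits, and gave log2 fold changes of 6.83 for Il6, 4.33 for Il11, 4.24 for Lif, 3.699 for Osm, 3.12 for Clcf1 and 2.68 for Osmr. The cause was not tested. Without young heart 15 and aged heart 3 together, a setting chosen after seeing the data, 8 were higher and 1 lower, with Il6st at 0.87. With 1 heart at a time left out, 5 to 8 of the 9 were past the limits and higher and 0 to 1 lower. Over these 6 fits the log2 fold change ran from 1.78 to 4.39 for Lif, from 1.43 to 2.77 for Osmr, from 0.41 to 0.91 for Il6st and from -1.41 to -0.91 for Lifr. Without aged heart 3, 4 or 7 the count past the limits and higher was 6, 7 and 5, and without young heart 3, 13 or 15 it was 5, 5 and 8. No paired analysis was possible because the groups share only the number 3 in their labels, which names different hearts. Low read counts limit Il6, Il11, Lif and Osm in young hearts 3 and 13.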

Other observations

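Reg3b, a secreted lectin-like protein known as a target of oncostatin M in heart muscle, did not follow donor age. It was read 676, 1 and 367 times in young hearts 3, 13 and 15 and 4, 925 and 482 times in aged hearts 3, 4 and 7, and its log2 fold change was -0.065 with a standard error of 1.82. Within each group a single heart was nearly without it, although young hearts 3 and 13 were otherwise alike. The atrial marker Sln was read 133, 2 and 2 times in the young and 0, 875 and 8 times in the aged donor hearts, so that the 2 hearts with the most Reg3b reads were also those with the most Sln. A2m, an acute phase protein of the rat, was read 0, 0 and 4 times in the young and 23, 19 and 5 times in the aged donor hearts, and it did not pass the filter on low counts. These genes were singled out after their values were seen.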
